A study of Eonycteris spelaea and Mus musculus with 51 samples.

Results

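Lung of mice that had been heated for 1 h and then left to recover for 4 h was compared with lung of mice taken at baseline, across all genes. The comparison used 6 of the 51 libraries of the series, 3 at recovery and 3 control, and was chosen by the tissue, species and time point in the labels and not by any measured value. Of the 40840 gene rows counted, 19438 had enough reads to be tested. The series profiled lung, blood and muscle of heated bats and mice by bulk RNA sequencing, and its stated purpose was to set the heat shock response of bats beside that of the mouse. Control mice were sampled before any treatment, heat mice directly after 1 h of whole-animal heat shock, and recovery mice after the same heat shock plus 4 h. Strain, sex, age, temperature reached and hour of collection are not given in the sources used here, and no genetic change is named for any group. No unheated mice were sampled at the later time, so the heat, the handling and the elapsed hours cannot be told apart. The labels number the libraries within a group without saying which animal each came from, and the p-values below measure the spread between these libraries.

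As background, heat unfolds proteins and releases the transcription factor HSF1, which switches on chaperones of the HSP70, HSP90, HSP40 and small heat shock protein families. Once enough chaperone protein has accumulated, HSF1 is held inactive again and the messages decay. Whole-animal heat is also a systemic stress: corticosteroids rise in the blood, white cells move between blood and organs, and the lung, with its very large capillary bed, receives all of these signals.

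The libraries held 17.1 to 27.4 M counts, over the 6 compared and the 3 heat libraries fitted with them. They were lung by their markers: 20 epithelial markers, surfactant and airway genes among them, summed to 21680 to 24460 CPM in every library. CPM is a count scaled by library size. Several libraries stood apart in transcripts of other cells or programmes. Control 1 and heat 2 held fast skeletal muscle transcripts, with the skeletal actin gene Acta1 at 277.8 and 133.4 CPM against at most 1.03 CPM elsewhere. Control 3 lay nearer to the recovery libraries than to the other control libraries in several genes of the circadian clock, Arntl and Npas2 among them, but not in Per1. Recovery 3 had the smallest haemoglobin share, 0.287% of counts against 0.697 to 0.814% in control. The heat libraries differed from each other more than the others did, with a median SD of 0.149 on the log2 CPM scale against 0.103 in control and 0.092 at recovery (12893 genes).

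After 4 h of recovery 6 genes differed from control, 4 higher (0.0206% of the genes tested) and 2 lower (0.0103%), or 0.0309% in all. At an unadjusted p under 0.05 the share was 7.14%. The criterion was an adjusted p under 0.05 by the quasi-likelihood test of edgeR, adjusted by Benjamini-Hochberg and fitted over all 9 lung libraries, and "rose" and "fell" below refer to these 6 genes. Akr1c14, a steroid-reducing enzyme, Galnt15, a sugar transferase, Lox, the enzyme that cross-links collagen and elastin, and the uncharacterised gene LOC118568705 rose. Apln, which encodes the vessel peptide apelin, and Fat3, a giant cadherin, fell. In each of the 6 the recovery libraries did not overlap the control libraries, a pattern found in 16.8% of all genes tested, 8.61% upward and 8.24% downward. All 6 had an adjusted p of 0.0436 in edgeR. Their direction was the same in 16 alternative analyses. Those reuse the same libraries, which do not overlap in these genes, so the direction could hardly turn and is no separate support. The calls changed: 5 remained when the 6 libraries were fitted without the heat libraries, and 6 with DESeq2. Without control 2, heat 1, heat 2, recovery 2 or recovery 3 edgeR called no gene (1020 to 1507 genes had an unadjusted p under 0.05). Without control 1 or control 3 none of the 6 was called, without recovery 1 only Akr1c14 was, and without heat 3 all 6 were.

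**Figure D1:**
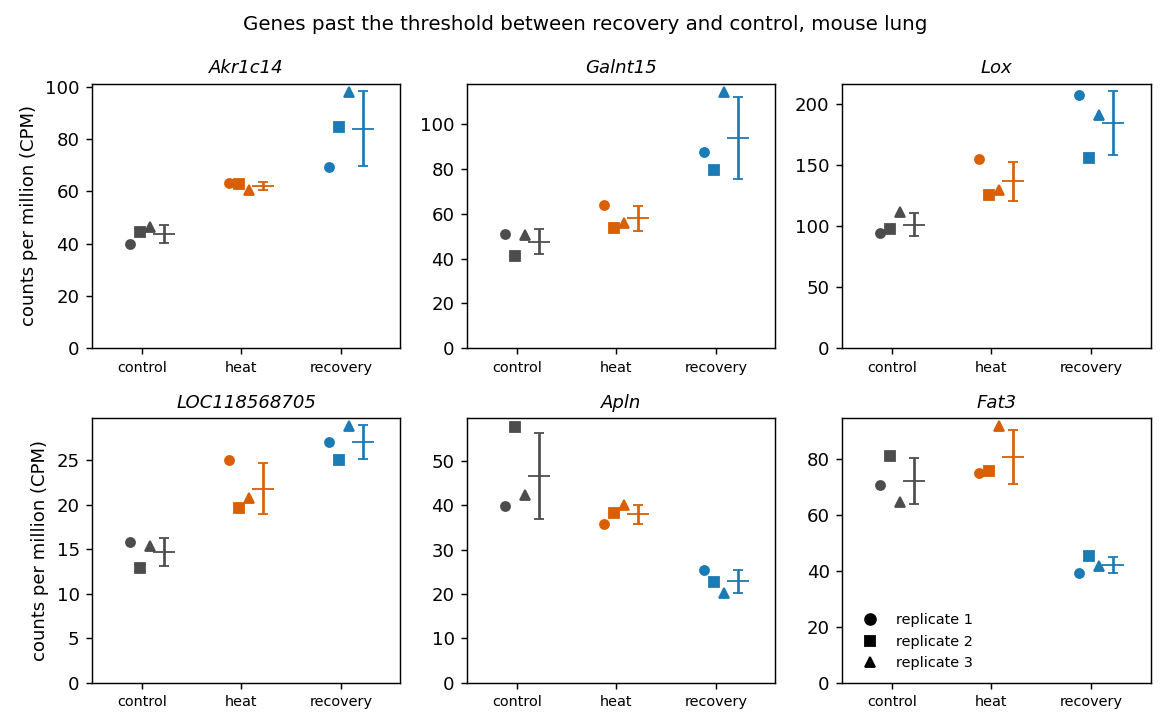
Levels of the 6 genes past the threshold in mouse lung. The y axis of each panel is CPM, the x axis the group, each point 1 library (circle, square and triangle for replicates 1, 2 and 3), and the dash with its bar the mean and SD of 3 libraries. In each panel the 3 recovery libraries lie on 1 side of the 3 control libraries, as with Apln at 20.3 to 25.4 CPM against 39.8 to 57.7 CPM.

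Akr1c14 encodes an aldo-keto reductase that reduces the 3-keto group of steroid hormones. It stood at 39.6, 44.5 and 46.4 CPM in control libraries 1 to 3 and at 69.3, 84.6 and 97.9 CPM in recovery libraries 1 to 3. The heat libraries held 63.2, 62.9 and 60.3 CPM, above all control and below all recovery libraries. Its log2 change was 0.95 (SE 0.11, 95% interval 0.70 to 1.20), a 1.93-fold rise. Of the 22 tested genes for aldo-keto reductases and steroid metabolism, Akr1c14 alone passed the threshold. The list was split between 11 positive and 11 negative changes, with a median of -0.004 on the log2 scale against 0.003 for all genes tested. Cyp2b10, a drug- and steroid-oxidising cytochrome, ranged from 190.4 to 265.6 CPM in control and from 267.2 to 279.5 CPM at recovery (log2 0.28, edgeR adjusted p = 0.658). Cbr2, the abundant lung carbonyl reductase, overlapped between the groups (1354, 1372 and 1567 CPM in control, 1953, 1591 and 1500 CPM at recovery, log2 0.23, edgeR adjusted p = 0.678).

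Galnt15 belongs to the polypeptide GalNAc transferases, which attach the first sugar of mucin-type chains to proteins. It was counted at 51.1, 41.2 and 50.6 CPM in control, against 87.7, 79.8 and 114.6 CPM at recovery, with recovery 3 the highest. At heat the values were 64.2, 53.9 and 55.9 CPM. The log2 change was 0.98 (SE 0.14), and in the fit of the 6 libraries alone its adjusted p in edgeR was 0.0599. Among 18 tested family members only Galnt15 passed, and the family median was -0.05. Galnt5 was the next by p, at 2.74 to 3.00 CPM in control and 3.89 to 4.32 CPM at recovery (log2 0.51, edgeR adjusted p = 0.568). Galnt17 went the other way with overlapping libraries (log2 -0.46, edgeR adjusted p = 0.674).

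Lox encodes lysyl oxidase, which starts the cross-linking of collagen and elastin fibres outside the cell. Control libraries held 94.2, 97.5 and 111.9 CPM, heat libraries 155, 125.3 and 129.6 CPM and recovery libraries 207.1, 155.5 and 190.6 CPM. Every recovery library thus exceeded every control library, and recovery 1 was the highest of the 9. The log2 change was 0.86 (SE 0.12), a 1.82-fold rise. The other genes of collagen and elastic fibre assembly did not pass the threshold: over all 31 tested, Lox included, 12 changes were positive and 19 negative, with a median of -0.05. Loxl1, the family member that acts on elastin, was lower in every recovery library (129.2, 156.8 and 118.6 CPM in control, 99.8, 111.6 and 115.6 CPM at recovery, log2 -0.31, edgeR adjusted p = 0.516). Loxl4 was at 4.47 to 6.97 CPM in control and 6.53 to 9.10 CPM at recovery (log2 0.46, edgeR adjusted p = 0.66), and the elastic fibre glycoprotein Emilin1 at 76.2 to 90.5 and 65.1 to 75.5 CPM (log2 -0.21, edgeR adjusted p = 0.681).

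Among genes of matrix and its control outside that list, Timp3 and Qsox1 stood next by p without passing the threshold. Timp3, an inhibitor of matrix metalloproteinases, was at 719.6, 753 and 834.3 CPM in control, against 993.9, 1121 and 1139 CPM at recovery (log2 0.50, edgeR adjusted p = 0.138). Qsox1, a secreted enzyme that forms disulphide bonds, was at 98.95, 104.7 and 99.5 CPM in control, against 132, 136.8 and 149 CPM at recovery (log2 0.46, edgeR adjusted p = 0.0947). Both passed in the fit of the 6 libraries (edgeR adjusted p = 0.0497 for Timp3 and 0.0259 for Qsox1). That fit called 40 of 18898 genes, or 0.212%, with 23 higher (0.122%) and 17 lower (0.09%). Itga2, a collagen-binding integrin subunit, was lower at recovery (50.4, 57.9 and 54.2 CPM in control, 41.5, 38.6 and 34.3 CPM at recovery, log2 -0.51), with an edgeR adjusted p of 0.143 over 9 libraries and 0.0497 over 6.

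Apln fell. Apelin is made as a precursor, cut from its C-terminal end, and signals through the receptor Aplnr on endothelial and muscle cells, where it acts on vessel tone and growth. Reads were counted per gene, so which Apln transcripts they came from is not known. The coding sequence of an Apln transcript is shown because it encodes the secreted ligand. It has 234 bases or 78 codons, is taken from the GENCODE M21 transcripts (build GRCm38), and runs from 5′ to 3′ with the start and stop codons in capitals.
Apln: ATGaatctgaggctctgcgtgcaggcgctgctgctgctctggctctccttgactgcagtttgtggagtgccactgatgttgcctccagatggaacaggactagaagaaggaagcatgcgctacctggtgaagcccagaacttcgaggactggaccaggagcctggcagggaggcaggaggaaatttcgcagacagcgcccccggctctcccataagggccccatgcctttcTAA

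In control the Apln level was 39.8, 57.7 and 42.3 CPM, at heat 35.7, 38.3 and 39.99 CPM, and at recovery 25.4, 22.8 and 20.3 CPM. The recovery libraries were the 3 lowest of the 9. The log2 change was -1.03 (SE 0.14, 95% interval -1.33 to -0.73). The receptor Aplnr was at 109.8, 87.3 and 107.2 CPM in control, 41.4, 54.6 and 26.9 CPM at heat, and 80.5, 92.8 and 73.7 CPM at recovery. Its recovery and control libraries overlapped, and the log2 change of -0.30 did not pass (edgeR adjusted p = 0.854). Ligand and receptor thus had different orders of the groups: the receptor was lowest in the heat libraries and the ligand in the recovery libraries.

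Of the 28 tested genes of apelin, VEGF and Notch vessel signalling, Apln was the only call, 16 changes were positive and 12 negative, and the median was 0.01. Cxcl12, a chemokine made by endothelial and stromal cells, was lower in every recovery library (200.9, 314.7 and 228.6 CPM against 157.1, 171.3 and 143.4 CPM, log2 -0.66). It did not pass in edgeR (adjusted p = 0.242) and did in DESeq2, which called 114 of 17988 genes or 0.634%. The Notch target Hey1 was at 56.9 to 80.3 CPM in control and 37.9 to 55.4 CPM at recovery (log2 -0.41, edgeR adjusted p = 0.651). Edn1, the vasoconstrictor endothelin, overlapped between the groups (log2 0.45, edgeR adjusted p = 0.693). Pde5a, the phosphodiesterase that ends cGMP signalling in vascular smooth muscle, stood at 390 to 463.3 CPM in control and at 312.1 to 321.1 CPM at recovery (log2 -0.42, edgeR adjusted p = 0.147). The tight range at recovery and the higher control values did not overlap.

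Fat3, a very large atypical cadherin involved in cell shape and tissue polarity, fell from 70.6, 81.0 and 64.6 CPM in control to 39.4, 45.3 and 41.7 CPM at recovery. The heat libraries, at 74.9, 75.7 and 91.9 CPM, lay near or above control. The log2 change was -0.77 (SE 0.11), a fold of 0.585. Fat3 was the only call among 21 cadherin and planar polarity genes, whose median was -0.06. Cdh11, a cadherin of mesenchymal cells, was lower in all recovery libraries (119.8, 166.2 and 130.9 CPM against 89.4, 96.2 and 102.7 CPM, log2 -0.53), and passed in DESeq2 but not in edgeR (adjusted p = 0.24). Pcdh12, a protocadherin of endothelial cells, was at 56.4 to 70.8 CPM in control and 48.4 to 51.0 CPM at recovery (log2 -0.32, edgeR adjusted p = 0.448). Celsr1, a planar polarity cadherin, was higher (114.5 to 116.5 CPM against 126.1 to 139.2 CPM, log2 0.22, edgeR adjusted p = 0.461).

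LOC118568705, a locus whose product is not named in the counted annotation, stood at 15.8, 12.9 and 15.4 CPM in control, 25.01, 19.6 and 20.7 CPM at heat, and 27.1, 25.03 and 28.8 CPM at recovery. Its log2 change was 0.87 (SE 0.12). Heat library 1 reached the level of the lowest recovery library, while the control libraries stayed below both groups.

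Other genes with the smallest p values above the threshold included regulators known from development. Sox11, a transcription factor of progenitor cells, was at 73.9, 67.4 and 63.3 CPM in control, against 95.1, 102.9 and 101.8 CPM at recovery (log2 0.55, edgeR adjusted p = 0.0823, and 0.0205 in the fit of 6 libraries). Gfra2, a receptor for the GDNF family ligand neurturin, was at 33.1, 38.6 and 26.7 CPM in control, against 15.2, 20.6 and 17.4 CPM at recovery (log2 -0.88, edgeR adjusted p = 0.0974). Sfrp2, a secreted WNT modulator, was at 7.51 to 8.27 CPM in control and 3.34 to 4.43 CPM at recovery (log2 -0.98, edgeR adjusted p = 0.12). These 3 did not overlap between the groups in any library. Robo2, a receptor for the guidance cue SLIT, had a log2 change of -0.45, the cullin adaptor Klhl13 of -0.67 and Igsf10 of -0.66, with edgeR adjusted p values of 0.152, 0.151 and 0.147. In the fit of the 6 libraries Sfrp2, Robo2, Klhl13 and Igsf10 passed (edgeR adjusted p = 0.0467, 0.0497, 0.0497 and 0.00868), and Gfra2 did not (0.0599).

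Dhtkd1, a mitochondrial dehydrogenase subunit of lysine breakdown, was at 3.08, 3.41 and 4.61 CPM in control, against 9.74, 7.89 and 7.76 CPM at recovery (log2 1.18, edgeR adjusted p = 0.0947). The heat libraries, at 3.33 to 3.45 CPM, lay within the control range. Abat, which breaks down the transmitter GABA, was at 5.86 to 7.23 CPM in control and 10.9 to 13.3 CPM at recovery (log2 0.89), and Selenbp1, a methanethiol oxidase, at 305.9 to 386.3 and 486.1 to 556.4 CPM (log2 0.58), both with an edgeR adjusted p of 0.0947. All 3 passed in the fit of the 6 libraries (edgeR adjusted p = 0.0467 for Dhtkd1, 0.0456 for Abat and 0.0467 for Selenbp1). Hs3st1, a heparan sulphate sulphotransferase, was at 19.7 to 27.4 CPM in control and 37.1 to 41.7 CPM at recovery (log2 0.70, edgeR adjusted p = 0.172), and Samd5 at 25.8 to 31.8 and 40.2 to 42.8 CPM (log2 0.50, edgeR adjusted p = 0.152). Ly6c1, a surface protein of capillary endothelium and some lymphocytes, was at 103.4 to 116.3 CPM in control and 148.9 to 207.3 CPM at recovery (log2 0.70, edgeR adjusted p = 0.0947).

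Most chaperones that were high at heat overlapped control or lay below it at 4 h. Among 36 heat shock proteins and co-chaperones, 1 was above control in every library, the small heat shock protein Hspb1. Hspa1a, an inducible HSP70, held 10.2, 28.4 and 10.6 CPM in control, 1548, 214.8 and 6334 CPM at heat and 9.40, 13.0 and 10.8 CPM at recovery. Hspa1b held 16.3, 32.8 and 11.3 CPM in control, 1879, 280.7 and 7527 CPM at heat and 9.74, 12.3 and 11.99 CPM at recovery. The coding sequences of this pair (1926 and 1929 bases) were 98.1% identical when compared position by position without alignment. How their reads divide is thus uncertain. Neither passed the threshold in edgeR (log2 -0.55 with a 95% interval of -3.42 to 2.31, adjusted p = 0.97, and log2 -0.81 with an interval of -3.57 to 1.94, adjusted p = 0.951). The SEs were 1.18 and 1.14 with the heat libraries in the fit and 0.49 and 0.45 without them. Intervals this wide do not show that the groups were alike.

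Hspa8, the constitutive HSP70 that folds new proteins, lay below its control range. It stood at 637.9, 888.1 and 752.9 CPM in control, 2396, 1515 and 3267 CPM at heat, and 317.5, 388.8 and 339.4 CPM at recovery. Every recovery library was below every control library, at a fold of 0.459 (log2 -1.12). The adjusted p in edgeR was 0.281 with all 9 libraries (SE 0.25) and 0.00868 with the 6 libraries alone (SE 0.12), and DESeq2 over 9 libraries gave an adjusted p of 0.0165. Hspa2, an HSP70 best known from the testis, was at 16.1, 16.5 and 15.1 CPM in control, against 10.8, 10.5 and 10.2 CPM at recovery (log2 -0.60, edgeR adjusted p = 0.147 over 9 libraries and 0.0497 over 6). St13, a co-chaperone that binds HSP70, was at 92.0 to 96.5 CPM in control and 69.1 to 82.1 CPM at recovery (log2 -0.30, edgeR adjusted p = 0.475). Dnaja1, an HSP40 partner, was lower in every recovery library too (78.4, 111.7 and 88.4 CPM against 53.8, 66.2 and 69.2 CPM, log2 -0.56, edgeR adjusted p = 0.902).

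Hspb1, the small heat shock protein that binds unfolding proteins and actin, was above control in every recovery library. It was at 129.3, 63.4 and 87.2 CPM in control, 545.4, 336.7 and 1810 CPM at heat and 233.9, 417 and 412.2 CPM at recovery. The recovery libraries did not overlap the control libraries, at a fold of 3.80 (log2 1.93, SE 0.69, 95% interval 0.26 to 3.59). The change did not pass the threshold in edgeR with 9 libraries (adjusted p = 0.639) or with 6 (adjusted p = 0.249). Hsp90aa1, the inducible HSP90, overlapped between recovery and control (350.7, 480.6 and 480.3 CPM against 414.2, 262.7 and 324.4 CPM, log2 0.39, edgeR adjusted p = 0.929), and so did the constitutive Hsp90ab1 (log2 0.15, edgeR adjusted p = 0.933).

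Other inducible chaperones lay near or within the control range after 4 h. Dnajb1, the HSP40 that works with inducible HSP70, was at 24.98, 46.7 and 28.0 CPM in control, against 23.2, 25.1 and 24.4 CPM at recovery, Bag3 at 38, 50.5 and 40.5 CPM and 41.2, 41.2 and 43.7 CPM, and Hsph1, an HSP110, at 67.4, 65.1 and 51.6 CPM and 39.1, 67.2 and 69.7 CPM. Their log2 changes were -0.45, -0.03 and -0.06, with edgeR adjusted p values of 0.968, 0.997 and 0.996. The sign for Hsph1 and Bag3 turned when single libraries were left out. No gene passed among 36 heat shock proteins and co-chaperones, 10 changes were positive and 26 negative, and the median was -0.10. At an unadjusted p under 0.05 there were 1 higher and 3 lower, where all genes gave 3.63% and 3.51%, and the libraries did not overlap for 1 higher and 9 lower members (8.61% and 8.24% of all genes). In the fit of the 6 libraries and in DESeq2 the calls were Hspa8 and Hspa2, both lower.

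**Figure D2:**
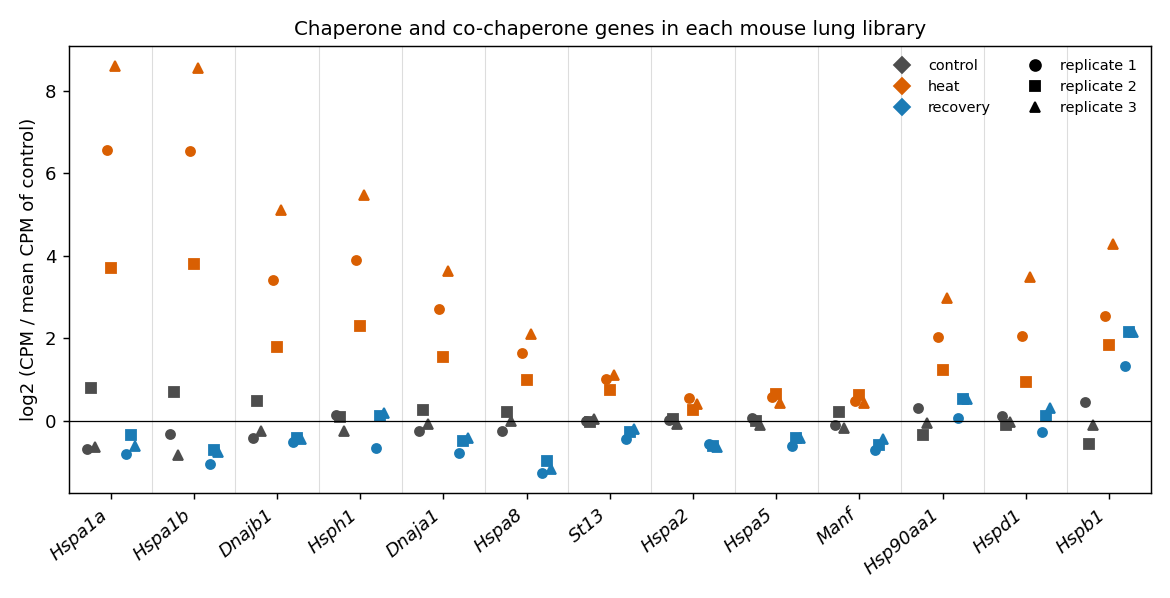
Chaperone and co-chaperone genes in each of the 9 lung libraries. The y axis is the log2 ratio of the library's CPM to the mean CPM of control, the x axis the gene, colour the group and symbol the replicate number. The heat points lie above 0 in the genes shown, least in Hspa2, Hspa5 and Manf. The recovery points of Hspa8 (317.5 to 388.8 CPM), Hspa5 and Manf lie below the control points, and those of Hspb1 above them.

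Chaperones of the endoplasmic reticulum, which fold secreted and membrane proteins, leaned the same way. Hspa5, the HSP70 of that compartment, stood at 380.3, 360.9 and 336.7 CPM in control, 536.1, 567 and 487.5 CPM at heat, and 235.3, 270.7 and 269.6 CPM at recovery. All recovery libraries were below all control libraries (log2 -0.47, edgeR adjusted p = 0.147 over 9 libraries and 0.0467 over 6). Manf, a secreted stress-response factor of the same compartment, was at 35.8, 44.9 and 34.3 CPM in control, against 23.4, 25.6 and 28.3 CPM at recovery (log2 -0.57, edgeR adjusted p = 0.181, DESeq2 adjusted p = 0.00554). Xbp1, a transcription factor of the unfolded protein response, was at 142 to 164 CPM in control and 118 to 137.4 CPM at recovery (log2 -0.26), and Dnajb9, an HSP40 of the reticulum, at 32.1 to 39.1 and 26.1 to 29.3 CPM (log2 -0.34), both with an edgeR adjusted p of 0.461. None of the 27 listed genes passed, and 3 changes were positive and 24 negative with a median of -0.13. At an unadjusted p under 0.05 there were 1 higher and 7 lower (3.63% and 3.51% of all genes). Without overlap, 2 members were higher and 8 lower (8.61% and 8.24% of all genes). In DESeq2 Hspa5 and Manf were called, and in the fit of 6 libraries Hspa5.

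Of the 20 tested mitochondrial chaperones and subunits of the cytosolic chaperonin, none passed in edgeR or DESeq2, and the median was -0.02. At an unadjusted p under 0.05, 1 was lower (3.51% of all genes). Hspd1, the mitochondrial HSP60, overlapped between recovery and control (59.4, 78.3 and 88.5 CPM against 77.9, 67.0 and 69.8 CPM, log2 0.08, edgeR adjusted p = 0.996), and its sign turned without recovery 3. The chaperonin subunits Cct4 and Cct6a, which fold actin and tubulin, were lower in every recovery library, with log2 changes of -0.24 and -0.18 and edgeR adjusted p values of 0.65 and 0.795. The change of greatest size in the list was positive, in Hspe1, the HSP10 partner of HSP60, named after its values were seen (19.8, 13.0 and 13.2 CPM in control, 19.2, 21.9 and 26.8 CPM at recovery, log2 0.56, edgeR adjusted p = 0.929). Across the list 1 member was higher and 3 were lower without overlap (8.61% and 8.24% of all genes).

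Corticosteroid-responsive genes were mixed. Of 21 tested, none passed in edgeR, 6 changes were positive and 15 negative, and the median was -0.23. At an unadjusted p under 0.05 there were 5 higher and 2 lower (3.63% and 3.51% of all genes). DESeq2 called Mt2 in this list, and 0.634% of all the genes it tested. Fkbp5, which tunes the glucocorticoid receptor, was at 19.8, 18.0 and 19.6 CPM in control, 79.1, 75.5 and 84.3 CPM at heat, and 22.3, 19.5 and 36.5 CPM at recovery. Its recovery value was raised in library 3 and near control in the other two (log2 0.45, edgeR adjusted p = 0.673). Tsc22d3, the anti-inflammatory target GILZ, was at 72.1, 165.6 and 126.4 CPM in control, against 70.0, 60.0 and 97.3 CPM at recovery (log2 -0.68, edgeR adjusted p = 0.73). Ddit4, an inhibitor of the growth kinase mTOR, was at 10.3 to 15.1 CPM in control and 11.5 to 13.4 CPM at recovery after 45.9 to 64.5 CPM at heat (log2 -0.04, edgeR adjusted p = 0.988), and its sign turned without control 2 or recovery 2.

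Within the same list 4 members were higher and 1 lower without overlap (8.61% and 8.24% of all genes). The higher ones included glutamine synthetase and the metallothioneins. Glul, the glutamine synthetase, was at 210.9, 203.1 and 242.5 CPM in control, against 278.1, 255.3 and 342.3 CPM at recovery (log2 0.42, edgeR adjusted p = 0.381), and the sulphotransferase Sult1a1 at 25.6 to 37.0 and 39.3 to 52.8 CPM (log2 0.51, edgeR adjusted p = 0.428). Mt1, a metal-binding metallothionein, was at 6.91, 5.48 and 5.79 CPM in control, against 10.7, 10.3 and 11.7 CPM at recovery (log2 0.85, edgeR adjusted p = 0.597 over 9 libraries and 0.0467 over 6). Mt2 was at 5.90, 2.18 and 3.72 CPM and 10.3, 8.45 and 12.7 CPM (log2 1.41, edgeR adjusted p = 0.452). The metallothioneins also stand in the list of oxidative stress and NRF2 targets, where 16 of 21 changes were positive with a median of 0.09. None passed in edgeR, and 4 were higher at an unadjusted p under 0.05 (3.63% of all genes). Without overlap 5 members were higher (8.61% of all genes). DESeq2 called Mt2 and Prdx6 in that list. Gsta3, a glutathione transferase, was at 56.0 to 63.0 CPM in control and 70.5 to 88.8 CPM at recovery (log2 0.38, edgeR adjusted p = 0.281). Prdx6, the peroxide-reducing peroxiredoxin of alveolar cells, was at 478.2 to 605.8 and 678.2 to 705.4 CPM (log2 0.36, edgeR adjusted p = 0.34). Hmox1, the haem-degrading enzyme, overlapped between the groups (log2 0.07, edgeR adjusted p = 0.976).

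Immediate early genes, which respond to stimuli within minutes, were mixed, with more negative than positive changes. Of 28 tested, none passed, 7 changes were positive and 21 negative, and the median was -0.18. At an unadjusted p under 0.05, 1 was higher and 2 lower (3.63% and 3.51% of all genes). Ier3, which DESeq2 called, was higher (47.4 to 51.7 CPM in control, 59.4 to 67.3 CPM at recovery, log2 0.37, edgeR adjusted p = 0.247). The endothelial flow-response factor Klf2 was at 107.2, 217.8 and 130.9 CPM in control, against 98.0, 97.1 and 96.8 CPM at recovery (log2 -0.64, edgeR adjusted p = 0.598), with control 2 far above the rest. Myc, a growth regulator, was at 4.42 to 6.04 and 2.80 to 4.08 CPM (log2 -0.55, edgeR adjusted p = 0.573). Fos and Atf3 overlapped between recovery and control (log2 -0.23 and -0.35, edgeR adjusted p = 0.968 and 0.98).

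Several clock genes divided the control libraries. These genes drive each other through the day, so that Arntl and Npas2 peak opposite to Dbp, Tef and the Per genes. Arntl, the positive arm, was at 57.9, 86.6 and 29.2 CPM in control libraries 1 to 3 and at 23.6, 21.3 and 34.4 CPM at recovery. Npas2, its partner, was at 22.3, 31.1 and 6.90 CPM and 5.02, 6.77 and 8.597 CPM. Control 3 thus lay inside the recovery range in both genes, while control 1 and control 2 were above it. The output factor Dbp showed the mirror image, at 16.5, 2.18 and 70.2 CPM in control, against 98.1, 71.3 and 44.2 CPM at recovery, and Nr1d1, the repressor REV-ERB alpha, was at 122.4, 44.0 and 209.5 CPM and 217.7, 189.6 and 173.2 CPM.

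Tef was the only one of 21 tested clock genes without overlap, a pattern found in 16.8% of all genes tested. It was at 117.6, 110.5 and 222.5 CPM in control, against 296, 250.7 and 226.8 CPM at recovery (log2 0.78, edgeR adjusted p = 0.568). Per3 overlapped (57.1, 36.5 and 109.4 CPM against 154.8, 123 and 90.7 CPM, log2 0.85, edgeR adjusted p = 0.744), as did Bhlhe41 (log2 0.68, edgeR adjusted p = 0.593) and Clock (log2 -0.19, edgeR adjusted p = 0.606). Per1, which both the clock and corticosteroids drive, was at 67.9, 156.3 and 145.6 CPM in control, 243.3, 195.3 and 268.4 CPM at heat, and 58.5, 41.9 and 85.2 CPM at recovery (log2 -0.996, edgeR adjusted p = 0.649), so here control 1 and not control 3 lay in the recovery range. None of the 21 passed in edgeR or DESeq2, and the median was 0.06. At an unadjusted p under 0.05, 3 were higher and 3 lower (3.63% and 3.51% of all genes). Arntl, Dbp, Nr1d1 and Per3 were picked for description after their values were seen. The part that the hour of collection had in any result here was not tested.

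**Figure D3:**
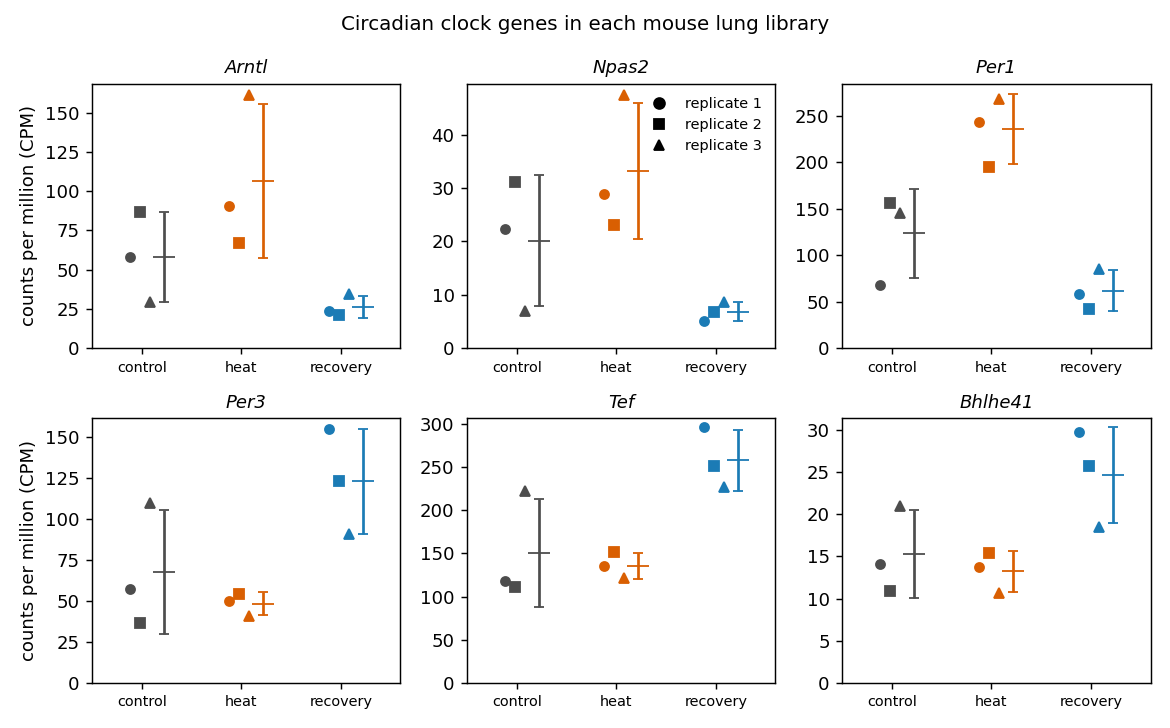
Circadian clock genes in each lung library. The y axis of each panel is CPM and the x axis the group, with 1 point per library, symbols for replicate numbers, and the mean and SD of 3 libraries as a dash with its bar. The triangle of control 3 lies apart from the other control points and near the recovery points in Arntl (29.2 CPM), Npas2, Per3 and Tef.

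No lymphocyte marker passed the threshold in edgeR over 9 libraries, and all tested T, NK and B cell markers had negative changes. In bulk tissue, fewer cells of a type and less RNA per cell cannot be told apart. All 20 tested T and NK cell markers had negative changes, with a median of -0.37. None passed in the edgeR fit of 9 libraries, DESeq2 called Gzma, 6 were lower at an unadjusted p under 0.05 (3.51% of all genes), and 9 were lower without overlap (8.24% of all genes). Gzma, a killing enzyme of NK and cytotoxic T cells, was at 8.40, 10.1 and 9.05 CPM in control, 5.85, 5.22 and 2.95 CPM at heat and 3.89, 2.94 and 4.67 CPM at recovery (log2 -1.26). Its edgeR adjusted p was 0.172 over 9 libraries and 0.031 over 6. Ncr1, the NK receptor NKp46, was at 4.89, 5.25 and 6.19 CPM and 3.00, 2.01 and 3.10 CPM (log2 -1.01, edgeR adjusted p = 0.44).

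The T cell kinase Lck was at 10.2 to 13.8 CPM in control and 7.80 to 8.46 CPM at recovery (log2 -0.58, edgeR adjusted p = 0.34), and the interleukin-7 receptor Il7r at 17.1 to 21.5 and 11.5 to 15.3 CPM (log2 -0.51, edgeR adjusted p = 0.461). The summed T and NK markers came to 181.2, 210.7 and 207.9 CPM in control, 143.3, 140.2 and 142.7 CPM at heat and 174.3, 141.9 and 163.1 CPM at recovery. All recovery sums lay below all control sums, and the heat sums were about level with the lowest recovery library. Without recovery 2 the list median was -0.24. Ccl5, a chemokine of cytotoxic lymphocytes, was at 2.50, 4.25 and 5.69 CPM in control, against 2.46, 1.40 and 2.36 CPM at recovery (log2 -1.01, edgeR adjusted p = 0.516).

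B cell markers had negative changes in 10 of 10 genes with a median of -0.34, and 1 of 10 was lower without overlap (8.24% of all genes). The libraries differed: the markers summed to 227.7, 242.9 and 210.6 CPM in control, against 242, 166.3 and 116.4 CPM at recovery. Recovery 1 lay in the control range, and without it the median was -0.70. Ms4a1, the surface protein CD20, was at 21.1 to 23.1 CPM in control and 12.8 to 19.5 CPM at recovery (log2 -0.51, edgeR adjusted p = 0.568). The summed neutrophil markers overlapped, at 76.5, 94.8 and 101.2 CPM in control, against 45.6, 118.5 and 73.1 CPM at recovery. Their median was -0.54 over 12 tested, with 2 changes positive and 10 negative. None passed the threshold or had an unadjusted p under 0.05 in edgeR, and none was called by DESeq2. Of the 12, 3 were lower without overlap (8.24% of all genes). Mmp8 was higher with overlapping libraries (1.75 to 4.08 CPM in control, 2.36 to 6.68 CPM at recovery, log2 0.67, edgeR adjusted p = 0.835). Csf3r, the receptor for the neutrophil growth factor G-CSF, was at 26.6 to 35.4 CPM in control, 32.9 to 90.9 CPM at heat and 18.6 to 24.3 CPM at recovery (log2 -0.54, edgeR adjusted p = 0.822), and Cxcr2 at 3.51 to 5.69 and 1.53 to 3.50 CPM (log2 -0.82, edgeR adjusted p = 0.765).

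Monocyte and macrophage markers stayed mixed, with 6 positive and 10 negative changes of 16 and a median of -0.10, and none passed in edgeR or DESeq2 or had an unadjusted p under 0.05. Erythroid markers were split between 4 positive and 6 negative changes, with a median of -0.42 over 10 tested. Of these, 1 was lower without overlap (8.24% of all genes). Their sums were 7178, 8180 and 6923 CPM in control against 5606, 7517 and 2859 CPM at recovery, with recovery 3 the lowest. Recovery 2, whose erythroid sum lay within the control range, had the lowest T and NK sum at recovery, and recovery 3, with the lowest erythroid sum, had the lowest B cell sum. Platelet markers were positive in 9 of 10, with a median of 0.25 and overlapping sums. The part of erythroid transcripts in the lymphocyte values was not tested.

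**Figure D4:**
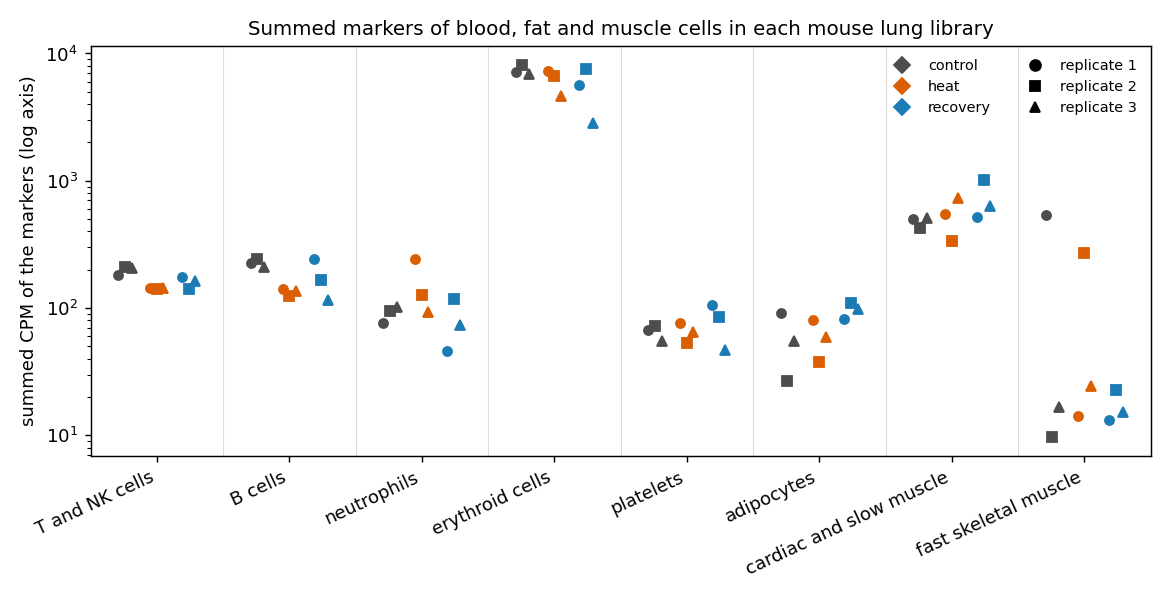
Summed CPM of cell type markers in each lung library, on a log axis. The x axis lists blood, fat and muscle cell types, colour gives the group and symbol the replicate number. T and NK sums lie lower at recovery (141.9 to 174.3 CPM) than in control (181.2 to 210.7 CPM), and fast skeletal muscle markers stand out in control 1 (535.2 CPM) and heat 2 (269.7 CPM).

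No tested inflammatory or interferon gene passed in edgeR or DESeq2. Of 30 listed inflammatory cytokines and NF-kB targets, 23 were tested in edgeR. Il6, Ccl2, Ccl3, Ccl7, Cxcl1, Cxcl2 and Cxcl9 had too few reads to be tested there. Of the 23, 9 changes were positive and 14 negative with a median of -0.09, and 3 were lower at an unadjusted p under 0.05 (3.51% of all genes). Nfkbia, the NF-kB inhibitor, was at 73.1, 82.1 and 93.6 CPM in control, 161.2, 148 and 149.8 CPM at heat and 72.6, 75.5 and 63.7 CPM at recovery (log2 -0.23, edgeR adjusted p = 0.655). Of 27 interferon-stimulated genes, none passed or had an unadjusted p under 0.05 in edgeR, none was called by DESeq2, and the median was 0.13. Recovery 3 was the highest library: Oasl2 was at 30.9, 39.4 and 62.3 CPM and Ifit3 at 31.3, 36.8 and 51.4 CPM in recovery 1 to 3, against 30.9 to 36.6 and 29.7 to 34.8 CPM in control. Without recovery 3 the median was -0.09.

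Several fat cell markers and lipid genes were higher at recovery, with none past the threshold in edgeR and Lpl called by DESeq2. Lpl, the lipase that frees fatty acids from circulating triglycerides, was at 130.5, 111.1 and 147.6 CPM in control, 171.8, 189 and 145 CPM at heat and 184.3, 214.8 and 259.2 CPM at recovery (log2 0.76, edgeR adjusted p = 0.172). Pnpla2, the first lipase of stored triglyceride, was at 54.9 to 70.5 and 73.9 to 92.6 CPM (log2 0.45, edgeR adjusted p = 0.44). The lipid-droplet protein Plin4 was at 23.0 to 44.5 and 46.9 to 62.1 CPM (log2 0.61, edgeR adjusted p = 0.554), and Fabp4, a fatty acid carrier of capillary endothelium, macrophages and fat cells, at 3.24 to 10.3 and 13.2 to 14.5 CPM (log2 0.91, edgeR adjusted p = 0.666). Of 29 tested genes for lipid uptake, storage and oxidation, 15 changes were positive and 14 negative, and the median was 0.006. At an unadjusted p under 0.05, 5 were higher and none lower (3.63% and 3.51% of all genes). Without overlap 6 were higher and none lower (8.61% and 8.24% of all genes).

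The 10 tested adipocyte markers were all positive, with a median of 0.88. They summed to 91.0, 26.6 and 54.7 CPM in control, 81, 37.4 and 59.2 CPM at heat and 82.1, 110 and 98.0 CPM at recovery, so control 1, the library with skeletal muscle transcripts, exceeded recovery 1, and the median without it was 1.26. Plin1, which coats the fat droplet, was at 3.83, 2.07 and 4.40 CPM in control, against 5.61, 8.26 and 6.73 CPM at recovery (log2 0.99, edgeR adjusted p = 0.681), and Adipoq, the fat cell hormone adiponectin, at 3.30, 1.45 and 3.93 CPM and 4.62, 6.16 and 5.55 CPM (log2 0.89, edgeR adjusted p = 0.808). Cfd, the fat cell protease adipsin, was at 16.8, 6.60 and 13.3 CPM and 21.3, 30.2 and 25.8 CPM (log2 1.07, edgeR adjusted p = 0.755). Adiponectin was described after its values were seen. The part of fat tissue taken with the lung in the Lpl, Plin4 and Fabp4 values was not tested.

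Cardiac and slow muscle markers were positive in 12 of 13, with a median of 0.62. They summed to 498.3, 427.1 and 509.1 CPM in control, against 514.7, 1012 and 638.4 CPM at recovery, with recovery 2 the highest. Myh7, the slow myosin heavy chain, was at 25.4 to 29.9 CPM in control and 32.3 to 39.8 CPM at recovery (log2 0.40, edgeR adjusted p = 0.568). Fast skeletal muscle markers had a median of -3.05 over 5 tested, set by control 1, and of 0.18 without that library.

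Most changes in cholesterol synthesis were positive: 15 of 19 tested genes, with a median of 0.11, and none passed in edgeR or DESeq2. At an unadjusted p under 0.05, 5 were higher and 1 lower (3.63% and 3.51% of all genes). Without overlap 7 were higher and 0 lower (8.61% and 8.24% of all genes). Lss, which closes the sterol ring, was at 26.3 to 29.7 CPM in control and 34.5 to 42.7 CPM at recovery (log2 0.42, edgeR adjusted p = 0.475). Fdft1, the squalene synthase, was at 34.7 to 38.7 and 43.0 to 46.5 CPM (log2 0.27, edgeR adjusted p = 0.482). Hmgcs1 and Sqle, which act before and after it, were higher in all recovery libraries with log2 changes of 0.23 and 0.22 (edgeR adjusted p = 0.516 and 0.552). The list median was 0.04 without control 1 and 0.20 without control 2.

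Epithelial, endothelial and fibroblast markers had list medians near 0. Those of pericytes and smooth muscle (0.13) and of the mesothelium (-0.23) lay further from it. Over 20 epithelial markers the median was 0.05, none passed, and Sftpd, a surfactant protein of host defence, was at 171.5 to 199.2 CPM in control and 196.4 to 249.9 CPM at recovery (log2 0.26, edgeR adjusted p = 0.673). Among 19 endothelial markers the median was -0.03 and Apln was the only call. Lyve1, a hyaluronan receptor of lymphatic vessels and some macrophages, was at 189.4, 139.7 and 167.5 CPM in control, against 213.2, 235.2 and 270.1 CPM at recovery (log2 0.53, edgeR adjusted p = 0.301), and was called by DESeq2. Emcn, a sialomucin of capillaries and veins, was at 20.8 to 29.8 and 16.2 to 19.6 CPM (log2 -0.49, edgeR adjusted p = 0.454).

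Among 15 fibroblast markers none passed in edgeR and the median was -0.03. At an unadjusted p under 0.05 there were 1 higher and 3 lower (3.63% and 3.51% of all genes). Tcf21, a transcription factor of lipid-storing lung fibroblasts, was at 30.5, 34.3 and 32.5 CPM in control, 28.0, 32.5 and 36.7 CPM at heat and 17.7, 21.6 and 25.3 CPM at recovery (log2 -0.59, edgeR adjusted p = 0.236), and was called by DESeq2. Itga8 and Npnt, an integrin subunit and its matrix ligand in alveolar fibroblasts, were both lower in all recovery libraries (log2 -0.23 and -0.25, edgeR adjusted p = 0.528 and 0.606). Gli1, the hedgehog target of fibroblasts around airways and vessels, was higher (6.20 to 9.51 CPM in control, 11.3 to 12.3 CPM at recovery, log2 0.56, edgeR adjusted p = 0.452). The 13 pericyte and smooth muscle markers had a median of 0.13, and Higd1b, a pericyte gene, was at 13.8 to 15.8 CPM in control and 16.7 to 18.1 CPM at recovery (log2 0.28, edgeR adjusted p = 0.568).

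**Figure D5:**
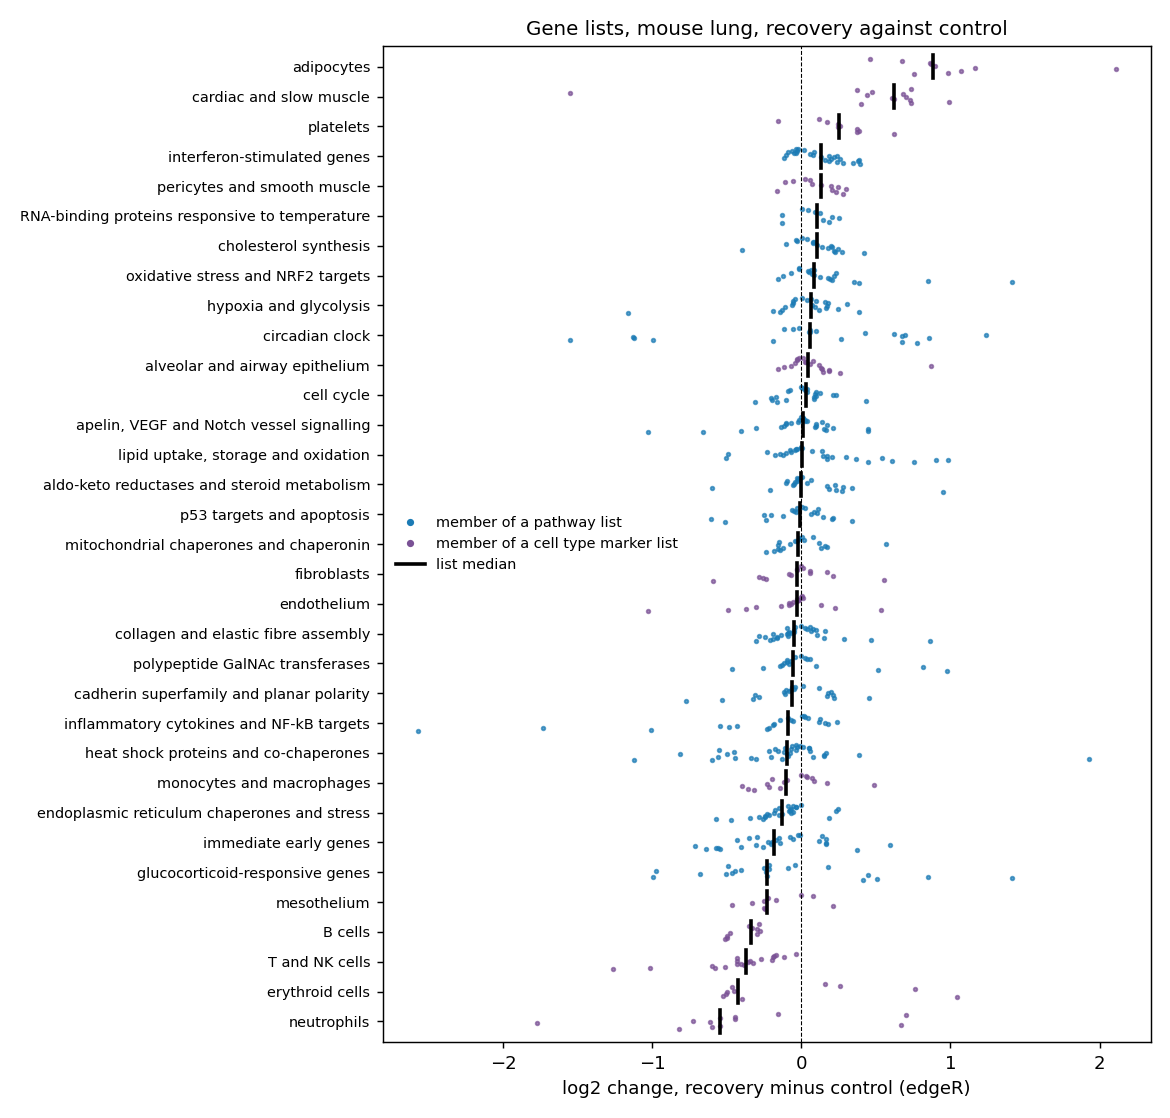
Gene lists in mouse lung at recovery against control. The x axis is the edgeR log2 change of each tested member (points) and the bars are list medians, for all lists but fast skeletal muscle. The adipocyte markers lie to the right of 0 (median 0.88), the T and NK cell markers to the left (median -0.37), and most pathway lists centre near 0.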

How the data were processed

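Lung RNA was isolated by TRIzol, and a NEBNext Ultra Directional kit was used for library construction (per the labels' protocols). The authors deposited raw counts per gene, without normalization. Reads were aligned with STAR 2.7 to GRCm39 and counted with featureCounts, per the submitters' processing notes. The strand setting and the annotation are not given in the sources used here, so overlapping and antisense genes cannot be told apart, and no coordinates are given. Every count column was mapped to a library by its name. Pairs of libraries within the control and recovery groups differed by more than counting error.

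The 9 lung libraries (3 control, 3 heat, 3 recovery) were fitted together with edgeR 4.0.16 (R 4.3.3, limma 3.58.1): filterByExpr with a minimum count of 10 and a minimum total of 15, trimmed mean of M values (TMM) scaling, and the robust quasi-likelihood test of recovery minus control. P-values were adjusted by Benjamini-Hochberg over all 19438 genes, with a threshold of 0.05. CPM are counts scaled by library size and TMM factor. Log2 changes are edgeR fits, and a library total of 17.1 to 27.4 M limits low genes to coarse values. The common biological coefficient of variation of these libraries was 0.161.

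Alternatives were DESeq2 1.42.0, median-of-ratios scaling, no filter, the 6 recovery and control libraries alone, a replicate block and leaving out each library. Further ones were added after the data were seen: the 6 libraries with the block, leaving out both libraries with skeletal muscle transcripts, and leaving out each library from the fit of 6. Counts were also simulated for this comparison with 200 changed genes. There edgeR recovered 64% of 2-fold and 83% of 4-fold changes with 13 false calls among 19088 genes. The 200 was a setting and not taken from the data, where 6 genes were called. Each gene was given the same spread in all libraries, while the real heat libraries differed more. Their median SD was 0.149 against 0.103 in control and 0.092 at recovery. The simulated shares and false calls may therefore not hold for the comparison itself.

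Named genes are those past the threshold, the 10 per direction with the smallest p among the rest (mean of at least 5 CPM, a gene symbol, no overlap), a panel of 24 stress genes, up to 4 members of each of 34 lists, and family members of the called genes. The lists and members were chosen with earlier results of these data known, so their counts are descriptions.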

Additional observations from a re-analysis of the deposited data

How the results depend on the processing

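The count of called genes, 6 over 9 libraries, depended on the analysis: it was 114 with DESeq2, 22 without a filter on low counts, 40 in the 6 libraries alone (26 with the replicate block added), and 2 without control 1 and heat 2, the libraries with skeletal muscle transcripts, in a fit whose 2 calls were none of the 6. Median-of-ratios scaling gave the same 6 genes. Leaving out 1 library at a time gave 0 to 62 calls. Without heat 3 there were 62, the 6 included. Without control 1 or control 3 there was 1, and without recovery 1 there were 2, of which Akr1c14 was among the 6. Without control 2, heat 1, heat 2, recovery 2 or recovery 3 there were none in edgeR, with 1020 to 1507 genes at an unadjusted p under 0.05. In the fit of 6 libraries, leave-outs gave 5 to 70 calls: 70, 9 and 30 without control 1, 2 and 3, and 6, 8 and 5 without recovery 1, 2 and 3. The cause was not tested.

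With the replicate block over 9 libraries edgeR called 0 genes, with 1265 at an unadjusted p under 0.05. The deviations of same-numbered control and recovery libraries correlated at -0.002, 0.015 and 0.413, so the numbers were not taken as pairs, and only control 3 and recovery 3 correlated best with their own number.

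The 16 alternatives run per gene reuse the same libraries and do not include the leave-outs from the fit of 6. Of 126 genes examined one by one, 121 kept 1 direction in them, which is no separate support. For the others, over leave-outs the log2 change ran from -0.80 to 0.0904 for Hspa1a, -0.21 to 0.16 for Hsph1, -0.11 to 0.10 for Bag3, -0.0561 to 0.22 for Hspd1 and -0.18 to 0.0762 for Ddit4. Without both libraries with skeletal muscle transcripts it was 0.0103 for Hsph1. With 200 changed genes set in the simulation, 64% of 2-fold changes were recovered. Smaller changes, other numbers of changed genes and a wider spread in the heat libraries were not simulated.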

Other observations

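Cell cycle genes were split between the directions: of 22 tested none passed, 13 changes were positive and 9 negative, the median log2 change was 0.03, and none had an unadjusted p under 0.05 in edgeR or was called by DESeq2. Among 20 p53 targets and apoptosis genes the median was -0.01. Gadd45g, a stress gene that slows the cell cycle, was at 8.72, 9.33 and 9.19 CPM in control, against 6.79, 6.35 and 5.99 CPM at recovery, lower in every library (log2 -0.51, edgeR adjusted p = 0.516). Cdkn1a, the cell cycle inhibitor p21, was at 39.8, 58.2 and 34.8 CPM in control, 131.8, 108 and 190.8 CPM at heat and 35.7, 33.3 and 42.5 CPM at recovery (log2 -0.25, edgeR adjusted p = 0.919).

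RNA-binding proteins that respond to temperature were positive in 8 of 10 with a median of 0.11, and none passed or had an unadjusted p under 0.05 in edgeR or was called by DESeq2. Cirbp, a cold-induced RNA chaperone, was at 40.3, 34.4 and 32.6 CPM in control, 12.04, 13.6 and 10.7 CPM at heat and 48.5, 34.4 and 44.7 CPM at recovery, back in or above the control range (log2 0.25, edgeR adjusted p = 0.772). Rbm3, its relative, was at 64.1, 74.4 and 63.4 CPM in control, against 71.5, 74.0 and 87.6 CPM at recovery (log2 0.21, edgeR adjusted p = 0.799). Hypoxia and glycolysis genes had a median of 0.06 over 23 tested, and none passed in edgeR or DESeq2. At an unadjusted p under 0.05, 1 was higher and 1 lower (3.63% and 3.51% of all genes). Egln3, an oxygen-sensing prolyl hydroxylase, was at 6.11, 2.29 and 1.75 CPM in control and at 1.53, 1.87 and 1.08 CPM at recovery, with control 1 the highest (log2 -1.16, edgeR adjusted p = 0.599), and its log2 change was -0.43 without control 1. Bnip3, a mitophagy receptor, was at 27.4 to 36.4 CPM in control and 39.3 to 44.7 CPM at recovery (log2 0.39, edgeR adjusted p = 0.693). Markers of the mesothelium, which lines the lung surface, were negative in 8 of 10 with a median of -0.23, and Gpm6a was lower in every recovery library (51.0 to 57.2 CPM against 43.4 to 49.6 CPM, log2 -0.24, edgeR adjusted p = 0.585).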
